A study of Arabidopsis thaliana with 6 samples.

Results

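In *Arabidopsis thaliana* endosperm, 511 regions just upstream of protein-coding genes were in a single list of differentially methylated regions (DMRs) of the CHH context. CHH is a cytosine followed by 2 bases that are not G. The 236 mat regions came from the comparison of mat *nrpd1+/-* with WT and the 275 pat regions from the comparison of pat *nrpd1+/-* with WT. A region was taken when it overlapped no region of the other 2 CHH lists and when its midpoint lay within 1 kb upstream of a protein-coding gene, by strand, and inside no such gene. The 3 CHH lists hold 6462 regions, 2234 of them in the mat list, 2056 in the pat list and 2172 in the list between the heterozygotes. The mat regions were 10.6% of the mat list and the pat regions 13.4% of the pat list.

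Endosperm feeds the embryo and holds more maternal than paternal genome copies. Pol IV, whose largest subunit is encoded by *NRPD1*, makes the transcripts from which small RNAs of the RNA-directed DNA methylation pathway are produced. These small RNAs guide methyltransferases to matching DNA. CHH methylation has no symmetric partner to copy after replication, and the paper names it as the context mainly reduced when Pol IV is lost. In plants, sequence close to genes is a common place for this pathway, often over short transposon remnants.

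WT endosperm had a L*er* mother and a Col-0 father, both with functional *NRPD1*. In mat *nrpd1+/-* the L*er* mother was *nrpd1-/-* and the father Col-0. In pat *nrpd1+/-* the mother was L*er* and the Col-0 father was *nrpd1-/-*. The mutation was *nrpd1a-4*, a T-DNA allele of Col-0 that had been introgressed into L*er*. The paper states that introgressed Col-0 sequence remained in the L*er* *nrpd1-/-* plants. All endosperm was hand dissected at 7 days after pollination and pooled from many seeds, in 2 biological replicates per genotype from different parents. Bisulfite sequencing reads which cytosines were methylated. The lists give 1 difference per region, heterozygote minus WT in percentage points of CHH methylation, with both replicates pooled, so no value below has a spread between replicates. Depth, methylation levels and values per replicate are not in the lists. Both lists use the same WT libraries. No list names a cell type, and the tissue could not be checked against markers in these files.

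Membership was selected on measured values. A region had to differ from WT by at least 10 points in its own comparison and to be absent from the other 2 lists. Directions and sizes in that comparison are therefore descriptions without a test. At the distance limit, the mat region upstream of *AT3G47295* was just inside at 999 bp with a difference of -11.9 points, and that of *AT3G43740* was just outside at 1008 bp with -28.8 points. In the pat list the region of *RKD3*, a RWP-RK gene, was just inside at 989 bp with 20.6 points, and that of *AT2G27310* was just outside at 1009 bp with -21.3 points. The smallest differences were -10.003 points upstream of *FOLB2* in the mat list and 10.049 points upstream of *MYB64* in the pat list.

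The sequences below show the DNA in which these differences were measured. They are the 300-bp regions among the 5 with the largest difference of each list and direction, up to 2 of each, and, because no such pat region higher than WT had that length, the largest one that did. *REF6* and *SESA4* are shown as genes of the fixed lists, without the bases that reached into the gene. Sequences are RefSeq TAIR10.1 nuclear sequence, 5′ to 3′ on the strand of the gene, so that each runs toward its gene start. Capital C marks a CHH cytosine on the printed strand and capital G a CHH cytosine on the opposite strand.
AT3G44265 (mat list, lower) chr3:15956301-15956600: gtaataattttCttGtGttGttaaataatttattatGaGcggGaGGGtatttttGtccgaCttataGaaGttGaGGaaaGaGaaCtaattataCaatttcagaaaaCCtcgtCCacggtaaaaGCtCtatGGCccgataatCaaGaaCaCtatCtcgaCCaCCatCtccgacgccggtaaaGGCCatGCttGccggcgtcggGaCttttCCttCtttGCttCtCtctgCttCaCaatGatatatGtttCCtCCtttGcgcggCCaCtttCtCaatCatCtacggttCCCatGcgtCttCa
AT5G55640 (mat list, lower) chr5:22534301-22534600: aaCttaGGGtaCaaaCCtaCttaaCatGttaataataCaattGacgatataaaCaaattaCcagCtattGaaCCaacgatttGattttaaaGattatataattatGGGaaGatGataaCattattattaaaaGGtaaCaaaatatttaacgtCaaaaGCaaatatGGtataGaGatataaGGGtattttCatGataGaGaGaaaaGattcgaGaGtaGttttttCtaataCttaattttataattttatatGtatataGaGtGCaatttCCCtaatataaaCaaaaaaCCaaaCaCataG
AT2G22070 (mat list, higher) chr2:9382901-9383200: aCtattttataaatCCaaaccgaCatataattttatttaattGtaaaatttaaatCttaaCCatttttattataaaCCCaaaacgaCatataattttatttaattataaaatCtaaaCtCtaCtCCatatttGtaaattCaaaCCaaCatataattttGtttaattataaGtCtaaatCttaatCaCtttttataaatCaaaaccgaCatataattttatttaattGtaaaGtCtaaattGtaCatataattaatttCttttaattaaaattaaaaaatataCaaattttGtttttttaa
REF6 (mat list, lower) chr3:17935001-17935255: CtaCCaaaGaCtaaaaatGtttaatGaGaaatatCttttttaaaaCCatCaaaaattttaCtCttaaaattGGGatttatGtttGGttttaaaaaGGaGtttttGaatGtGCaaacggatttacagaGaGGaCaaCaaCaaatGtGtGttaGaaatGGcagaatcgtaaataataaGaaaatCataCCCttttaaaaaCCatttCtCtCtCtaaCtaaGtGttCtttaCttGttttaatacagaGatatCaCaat
SESA4 (mat list, lower) chr4:13613301-13613595: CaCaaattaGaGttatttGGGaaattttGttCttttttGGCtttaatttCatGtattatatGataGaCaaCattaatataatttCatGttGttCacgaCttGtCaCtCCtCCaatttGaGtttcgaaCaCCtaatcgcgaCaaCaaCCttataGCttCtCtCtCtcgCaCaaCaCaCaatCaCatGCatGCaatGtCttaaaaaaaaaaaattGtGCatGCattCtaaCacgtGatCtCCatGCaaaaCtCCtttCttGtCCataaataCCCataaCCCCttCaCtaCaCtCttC
TAF15 (pat list, lower) chr1:18632601-18632900: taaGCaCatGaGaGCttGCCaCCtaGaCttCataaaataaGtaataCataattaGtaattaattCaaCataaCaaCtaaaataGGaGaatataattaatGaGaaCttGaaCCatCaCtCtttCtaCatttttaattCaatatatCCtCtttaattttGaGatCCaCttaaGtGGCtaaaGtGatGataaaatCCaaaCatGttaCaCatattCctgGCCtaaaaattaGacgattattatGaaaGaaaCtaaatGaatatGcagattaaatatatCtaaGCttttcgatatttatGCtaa
GSTU19 (pat list, lower) chr1:29488201-29488500: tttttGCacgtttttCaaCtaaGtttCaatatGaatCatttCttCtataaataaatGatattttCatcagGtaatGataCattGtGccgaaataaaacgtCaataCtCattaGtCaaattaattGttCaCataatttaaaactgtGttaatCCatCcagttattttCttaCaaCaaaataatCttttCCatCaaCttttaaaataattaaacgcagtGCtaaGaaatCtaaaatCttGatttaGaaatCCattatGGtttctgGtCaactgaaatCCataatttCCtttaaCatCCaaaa
AT3G46600 (pat list, higher) chr3:17156901-17157200: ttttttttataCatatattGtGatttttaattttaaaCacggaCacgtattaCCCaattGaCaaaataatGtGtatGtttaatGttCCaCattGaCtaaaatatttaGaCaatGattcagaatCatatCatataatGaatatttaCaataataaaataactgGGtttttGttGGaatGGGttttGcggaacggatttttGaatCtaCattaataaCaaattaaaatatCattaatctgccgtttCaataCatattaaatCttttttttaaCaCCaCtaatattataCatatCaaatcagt

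Base composition and the number of cytosines varied widely among the regions shown. The region of *AT3G44265* held 80 CHH cytosines and 32 CG cytosines at a GC content of 43.0%. The region of *AT2G22070* held 39 CHH cytosines at a GC content of 15.7%, 31 of them on the printed strand and 8 on the other. It also held the longest exact repeat among those shown, a stretch of 31 bases present in 2 copies. A repeated stretch of at least 20 bases was found in 5 of 169 mat regions of 300 bp (2.96%) and in 3 of 154 pat regions (1.95%), against 5.03% and 4.74% of the other single-list regions of that length. The stretch of *SESA4* was the richest in CHH cytosines of those shown, with 91 in 295 bases.

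Across all members, the sequence was poor in G and C. The median GC content was 27.3% in the mat regions and 28.0% in the pat regions. The other single-list regions of the mat list had a median of 32.7%, and the 1 kb upstream of every protein-coding gene had a median of 32.6%. The rule kept midpoints out of protein-coding genes, and this sequence was not so limited. Of the 964 other mat regions, 229 had the midpoint in a protein-coding gene and 233 overlapped a pseudogene. The 1 kb upstream could include neighbouring genes. How much of the GC difference came from the rule was not tested. CHH cytosines were at a median of 21.7 per 100 bp in the mat regions and 22.7 in the pat regions, against 25 and 25.6 in the other single-list regions. Members lower and higher than WT were alike in GC content, with medians of 27.5% and 26.7% in the mat list.

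In mat *nrpd1+/-*, 129 of 236 regions (54.7%, exact interval 48.1% to 61.1%) were lower than WT and 107 were higher. In the whole mat list 50% of regions were lower. In pat *nrpd1+/-*, 132 of 275 (48.0%, 42.0% to 54.1%) were lower and 143 were higher, where the whole pat list had 54.8% lower. The other single-list regions were lower than WT in 50.9% (mat) and 56.7% (pat) of cases. The whole lists include these regions, and the contrast that gave the directions also chose the regions, so the shares were not tested against each other. The intervals cover the counting of regions only.

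Losses were of similar size in both lists and gains were larger in the pat list. The median loss was -12.8 points in the mat regions (range -44.4 to -10.003) and -12.7 in the pat regions (-60.1 to -10.049). The median gain was 14.3 points in the mat regions (10.1 to 52.1) and 17.2 in the pat regions (10.049 to 60.6). Among the other single-list regions the median gains were 14.4 and 14.0 points. At least 15 points separated 90 mat regions from WT, 46 lower and 44 higher, but 130 pat regions, 44 lower and 86 higher. At least 30 points separated 18 mat regions, 7 of them lower, and 26 pat regions, 8 of them lower. The pat regions were also longer. A single 300-bp window or less made up 170 mat regions (72.0%) and 154 pat regions (56.0%). Among the pat regions this was the case for 65.2% of those lower than WT and 47.6% of those higher.

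Whether a region could have been called in the other heterozygote differed between the lists. The authors kept only sequence whose share of maternal reads was near that of endosperm, and removed sequence that differed between the replicates of a genotype. A region is called kept in all 3 genotypes here when it passed both filters in each. That held for 144 mat regions (61.0%, exact interval 54.5% to 67.3%) but for 75 pat regions (27.3%, 22.1% to 33.0%). Of the remaining mat regions, 90 overlapped sequence variable between the pat *nrpd1+/-* replicates and 2 lay at least partly outside the maternal-share list of pat *nrpd1+/-*. Of the remaining pat regions, 93 lay at least partly outside the maternal-share list of mat *nrpd1+/-*, and these are called outside it below. The other 107 overlapped sequence variable in mat *nrpd1+/-*. A region outside the maternal-share list was counted there whether or not it was also variable. Thus for 200 pat regions and 92 mat regions, all or part of the sequence was not open to a call in the other heterozygote. The same shares over all single-list regions were 64.5% kept for mat and 37.3% for pat.

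The chromosomes showed where this sequence lay. The pat regions numbered 90 on chromosome 1, 51 on chromosome 2, 47 on chromosome 3, 30 on chromosome 4 and 57 on chromosome 5, and the mat regions 38, 32, 55, 48 and 63. Of the 93 pat regions outside the mat *nrpd1+/-* maternal-share list, 63 were on chromosome 1. All but 1 of these 63 lay between positions 17965101 and 30166500, an interval that includes *NRPD1* itself (*AT1G63020*, chr1:23354685-23362589). The maternal-share list of mat *nrpd1+/-* covered 15.1 Mb of chromosome 1, against 27.0 Mb in WT and 27.1 Mb in pat *nrpd1+/-*. Without such regions chromosome 1 held 37 mat and 27 pat regions. Of the 17 such regions on chromosome 2, 16 began at or after position 15110001. What set the maternal share there was not tested.

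**Figure D1:**
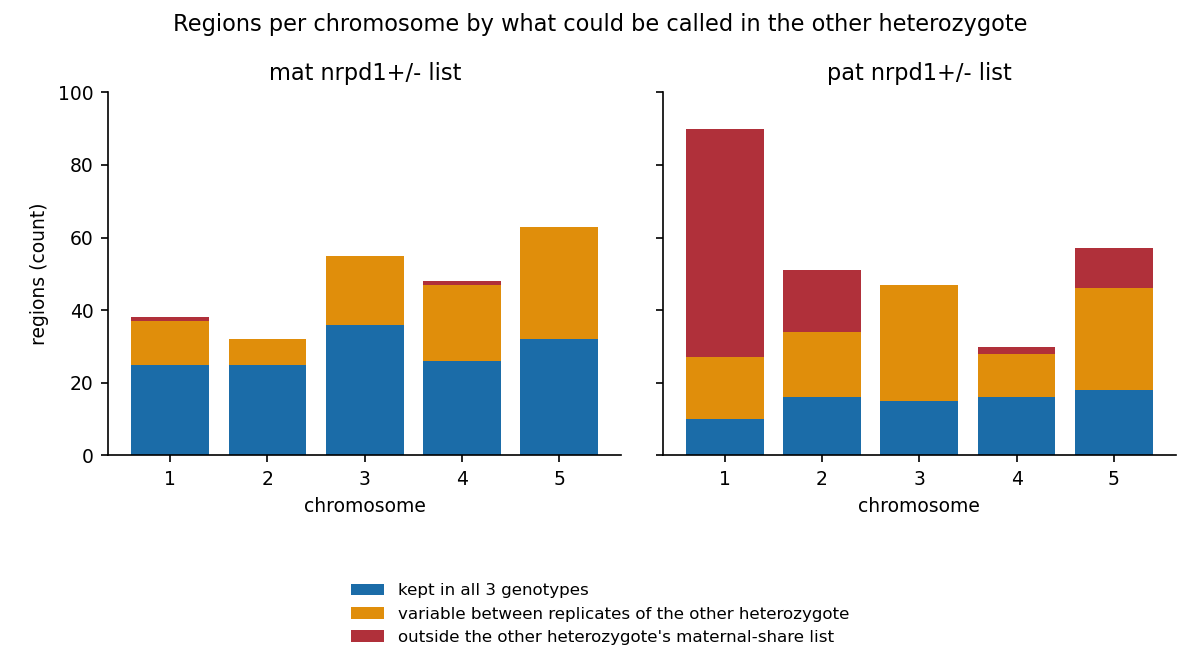
Number of regions per chromosome (bars, stacked counts) in the mat and pat lists, coloured by whether the other heterozygote kept the sequence. The pat bar of chromosome 1 reaches 90, of which 63 regions were outside the maternal-share list of mat nrpd1+/-.

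In sequence kept in all 3 genotypes the lists were alike in direction and size. There, 82 of 144 mat regions (56.9%, 48.4% to 65.2%) and 42 of 75 pat regions (56.0%, 44.1% to 67.5%) were lower than WT. Their median losses were -13.3 and -12.3 points and their median gains 13.6 and 12.9 points. The larger pat gains were elsewhere. In the 65 pat gains in sequence variable in mat *nrpd1+/-* the median was 16.98 points, and in the 45 outside its maternal-share list it was 18.7. Of the 86 pat gains of at least 15 points, 10 were kept in all 3 genotypes, 41 were in variable sequence and 35 were outside the maternal-share list. In the variable sequence 42 of 107 pat regions (39.3%) were lower than WT, and 46 of 90 mat regions (51.1%). The part of these filters in the direction of the pat list was not tested.

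**Figure D2:**
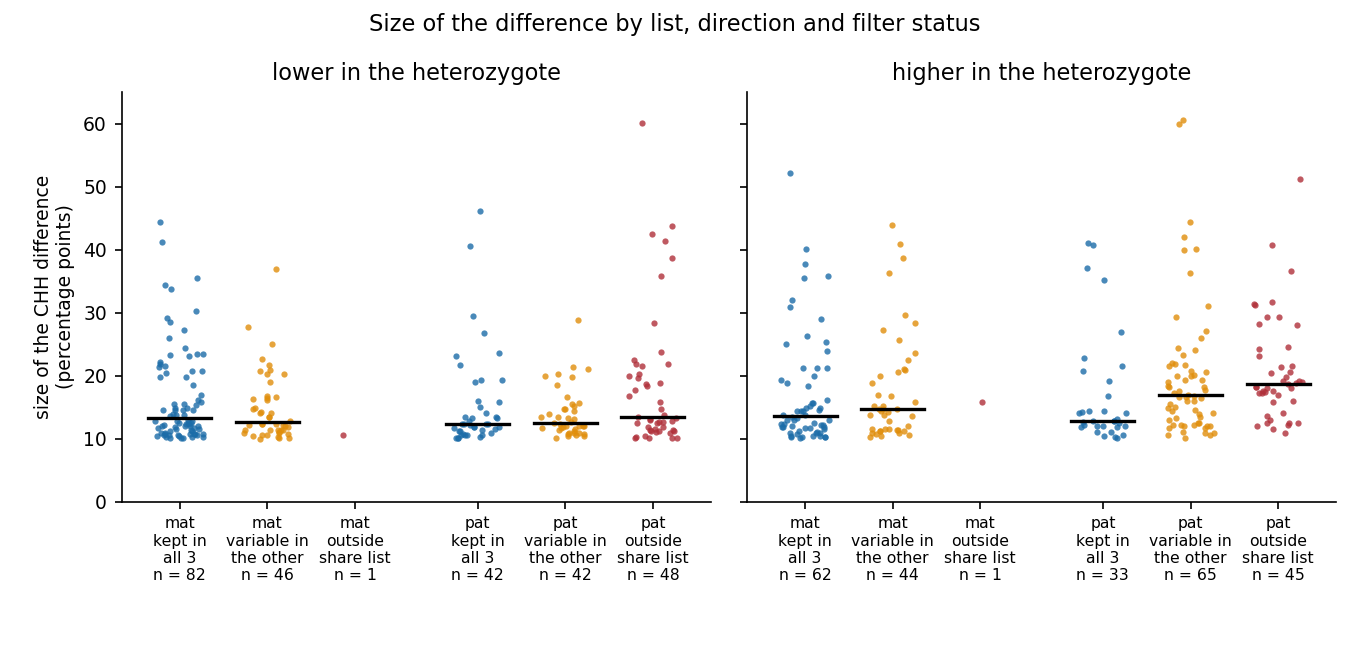
Size of the CHH difference from WT in percentage points for each region (points), by list, direction and filter status, with the median as a line. The pat gains kept in all 3 genotypes had a median of 12.9 points, below the medians of 16.98 and 18.7 in the other sequence.

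Some members were absent from the other lists despite a large difference. When 2 genotypes differ by 20 points or more on the same cytosines, the other genotype cannot be under 10 points from both. Here 38 of the 144 mat regions kept in all 3 genotypes differed from WT by at least 20 points, as did 15 of the 75 pat regions, and none of them overlapped a region of the other 2 lists. Each comparison used only the cytosines covered in both of its genotypes, with a minimum of 3 cytosines and 6 reads per cytosine, and the windows that met these minimums are not in the lists. How many of these regions were measured in the remaining genotype was not tested. A region of another CHH list lay within 300 bp of 11 mat regions and 7 pat regions.

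The distance to the gene did not separate the lists. The median distance of the midpoint was 335.5 bp in the mat list and 370.0 bp in the pat list. At most 500 bp separated 161 mat regions (68.2%, 61.9% to 74.1%) and 183 pat regions (66.5%, 60.6% to 72.1%) from the nearest start, a difference of -1.68 percentage points, pat minus mat, that did not pass the test (two-sided Fisher's exact test over regions, p = 0.706, adjusted p = 0.706 over the 3 tests). In steps of 250 bp away from the start, the mat list held 98, 63, 34 and 41 regions and the pat list 109, 74, 57 and 35. Midpoints inside genes were left out and the sequence open to the rule in each step was not measured, so these counts are not densities. The median absolute difference went from 13.3 points in the first step to 17.6 in the last in the pat list, and lay between 12.4 and 14.2 points in the mat list. Part of the region reached into a protein-coding gene in 81 mat regions (34.3%) and 92 pat regions (33.5%). The regions nearest a start were those of *AT5G56050*, 1 bp upstream in the mat list with -10.1 points, and of *AT4G20830*, 2 bp upstream in the pat list with 12.2 points.

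**Figure D3:**
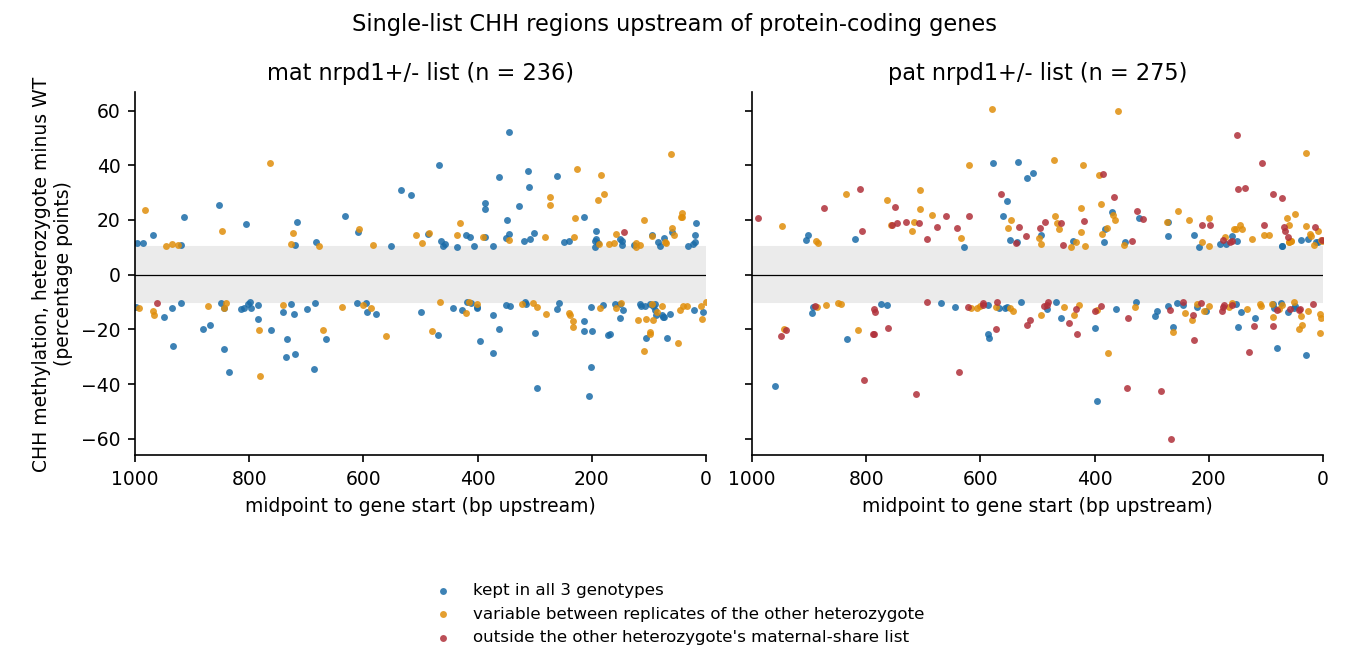
CHH methylation of the heterozygote minus WT in percentage points (vertical) against the distance from the region's midpoint to the nearest gene start in bp (horizontal), 1 point per region, coloured by filter status. The grey band is the range under 10 points that the lists leave out. The 250 bp next to the start held 98 mat and 109 pat regions, and the sequence open to the rule at each distance was not measured.

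Most regions had 1 gene downstream. A second gene started within 1 kb of 17 mat regions (7.20%, 4.25% to 11.3%) and 30 pat regions (10.9%, 7.48% to 15.2%), which did not pass the test (Fisher's exact test, p = 0.168, adjusted p = 0.253). When a region had to overlap the 1 kb upstream anywhere and to touch no protein-coding gene, in place of the midpoint rule, 178 mat and 208 pat regions qualified and the shares differed by 6.80 points with adjusted p = 0.0400 by the same exact test. Under the other 11 of the 12 alternatives the difference did not pass. In all, 251 genes had a mat region upstream and 304 a pat region, of 27444 protein-coding genes.

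Few regions lay over pseudogenes, the class in which the annotation files transposable element genes. The counts were 11 mat regions (4.66%, 2.35% to 8.19%) and 3 pat regions (1.09%, 0.226% to 3.16%), a difference of -3.57 points that did not pass after adjustment (Fisher's exact test, p = 0.0260, adjusted p = 0.0781). Under 9 of the 12 alternatives it did not pass either. It passed under the others, among them the one without chromosome 1, with a difference of -4.51 points and adjusted p = 0.0333 by the same exact test. The other single-list regions overlapped a pseudogene in 24.2% (mat) and 15.8% (pat) of cases. The rule placed members near protein-coding genes, while 735 of the other mat regions and 528 of the other pat regions had the midpoint in no such gene and not within 1 kb upstream of one. How much of this contrast came from the rule was not tested. Short transposon remnants outside these genes were not in the annotation used. In these tests regions are the units and the libraries were pooled, so that p describes the lists and not the reproducibility of a genotype.

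Among the strongest mat losses, 4 of 5 were in sequence kept in all 3 genotypes. The largest was -44.4 points upstream of *AT3G44265*, a beta-galactosidase-like gene, at chr3:15956301-15956600 and 205 bp from the start. The region of *AT5G55640* (chr5:22534301-22534600) differed by -41.3 points at 296 bp. The others were upstream of *AT3G19360*, a CCCH zinc finger gene (-37.0 points, 782 bp, variable in pat *nrpd1+/-*), *AT3G45570*, a RING/U-box gene (-35.5 points, 835 bp), and *AT5G24460*, a RING-H2 gene (-34.4 points, 686 bp).

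The strongest mat gain was 52.1 points upstream of *AT2G22070*, a pentatricopeptide repeat gene of the family that binds organelle RNA, at chr2:9382901-9383200 and 346 bp from the start. A gain of 44.0 points was at chr5:1935701-1936100. Its midpoint lay 61 bp upstream of *AT5G06330*, a late embryogenesis abundant family gene, and 438 bp upstream of *NUDX27*, a nudix hydrolase gene. Part of the region reached into *AT5G06330*. *AT3G01415* (40.8 points, 764 bp) encodes a tubulin-tyrosine ligase family protein and *AT3G32940* (40.1 points, 467 bp) a KH domain RNA-binding protein. The region of *TRFL4*, a TRF-like gene, was 38.7 points higher than WT at 227 bp. Of these 5 gains, those of *AT2G22070* and *AT3G32940* were kept in all 3 genotypes and the others were in sequence variable in pat *nrpd1+/-*.

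Among the strongest pat losses, 4 of 5 were on chromosome 1 outside the maternal-share list of mat *nrpd1+/-*. They were upstream of *AT1G52000*, a mannose-binding lectin gene (chr1:19336201-19336600, -60.1 points, 266 bp), *TAF15*, for a factor associated with the TATA-binding protein (-43.8 points, 712 bp), *AT1G57765* (-42.5 points, 283 bp) and *GSTU19*, a tau class glutathione transferase gene (-41.4 points, 344 bp). The difference of -46.1 points upstream of *AT5G45115* at chr5:18239101-18239500 was in sequence kept in all 3 genotypes.

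None of the 5 strongest pat gains was kept in all 3 genotypes. The regions of *AT1G47389* (chr1:17377701-17378300, 60.6 points, 579 bp) and *AT3G61930* (chr3:22934901-22935400, 60.0 points, 359 bp) were in sequence variable in mat *nrpd1+/-*. So were those of *AT3G29631*, a nuclease gene (44.5 points, 30 bp), and *ERF11*, a repressor of the ethylene response factor family (42.0 points, 471 bp). The region of *AT2G42340* (51.2 points, 151 bp) was outside the maternal-share list. In the kept sequence the largest pat gain was 41.1 points, upstream of the GRAS transcription factor gene *AT3G46600* (chr3:17156901-17157200, 534 bp).

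**Figure D4:**
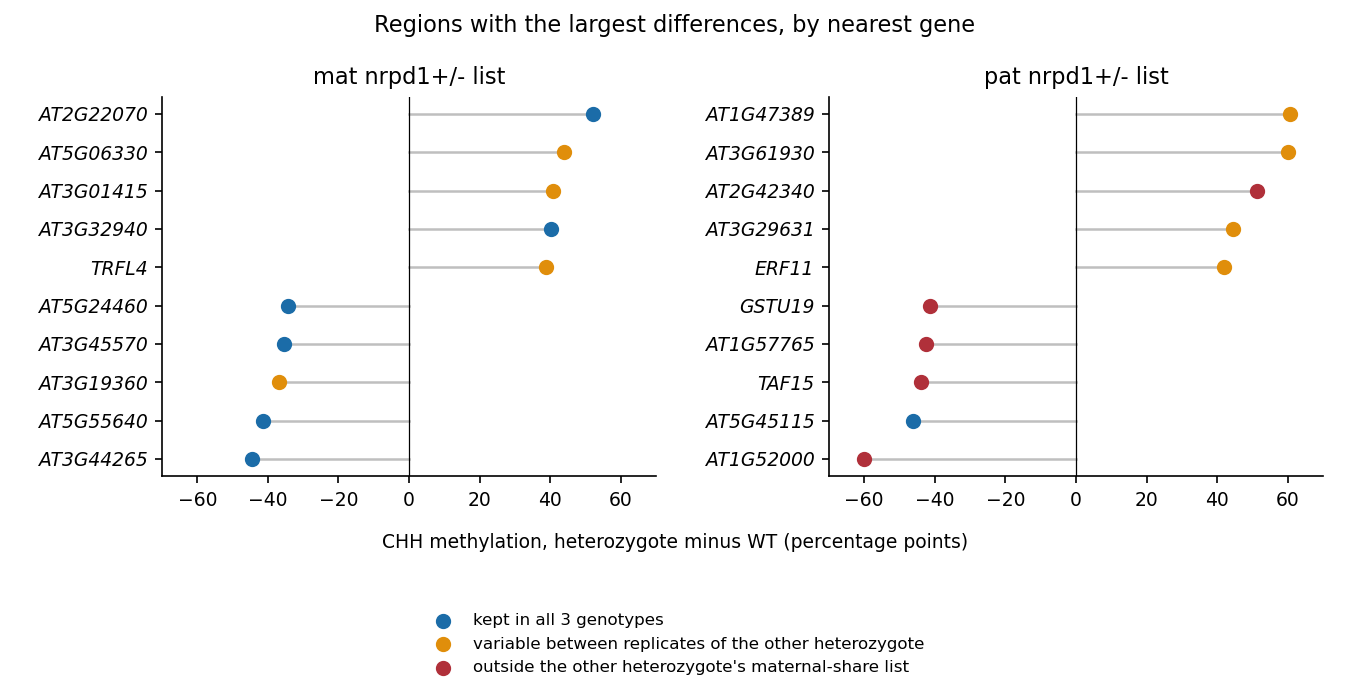
CHH difference from WT in percentage points (horizontal) of the 5 regions with the largest loss and the 5 with the largest gain in each list, named by the nearest gene and coloured by filter status. In the mat list 6 of the 10 were kept in all 3 genotypes, and in the pat list only the region of AT5G45115 was.

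The known genes of the pathway and of endosperm were next to these regions about as often as other genes. Of 146 symbols in 8 lists, on RNA-directed DNA methylation, methylation maintenance, demethylation, Polycomb complexes, imprinting, endosperm growth, seed sugar transport and seed storage, 136 matched the annotation. A region lay upstream of 3 of them (2.21%), against 2.01% of all protein-coding genes, a share near the background. *SUVH9*, whose protein binds methylated DNA and helps to recruit Pol V, had a pat gain of 20.1 points at chr4:7827301-7827800, 547 bp upstream, in sequence variable in mat *nrpd1+/-*. *REF6*, a histone demethylase that removes a Polycomb mark, had a mat loss (-16.3 points, 105 bp) in sequence variable in pat *nrpd1+/-*. *SESA4*, a seed storage albumin gene, had a mat loss (-12.8 points, 145 bp) in sequence kept in all 3 genotypes. None of the 21 matched imprinted genes and none of the 18 matched genes of endosperm growth had a region of either list upstream, nor had any of the 15 of methylation maintenance, the 8 of demethylation and the 19 of sugar transport, or any of the 25 matched genes of RNA-directed DNA methylation other than *SUVH9*.

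Genes were also grouped by words in the product names of the annotation, so that members named otherwise, such as *ERF11*, are not counted. Names of transcription factors (such as homeodomain, MYB, WRKY, bHLH, bZIP and NAC) were found for 18 of the 251 genes of the mat list (7.17%) and 14 of the 304 of the pat list (4.61%), against 3.98% of all protein-coding genes. Of these regions, 8 mat and 7 pat ones were lower than WT. They included *INO*, needed for the outer integument of the ovule (mat, -12.8 points), *FD*, which acts with the flowering signal (mat, 18.8 points), *WRKY22*, a defence regulator (mat, -12.0 points), and *HSFA6B*, a heat shock factor (pat, -15.2 points). Genes with AGAMOUS-like or MADS-box in the name, a class looked at after these values were seen, were 4 in each list, 1.59% and 1.32% of the genes against 0.437% of all. All of them were also counted among the transcription factors above. The mat regions were those of *AGL59* (20.6 points), *AGL16* (10.3 points), *AGL90* (-19.8 points) and *AGL98* (-11.6 points). The pat regions were those of *AGL102* (-19.0 points), *AGL85* (18.2 points), *AT1G59930* (-13.7 points) and *AGL66* (10.9 points). *GOA*, also a MADS-box gene but named otherwise, had a mat region with 13.8 points at 390 bp. Directions were mixed among these genes in both lists. No set test was made, and the space upstream of these genes was not compared with that of others.

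Genes with zinc finger or RING in the name were 16 of the mat genes (6.37%) and 11 of the pat genes (3.62%), against 3.06% of all. The mat gene *AT3G30235* was counted both here and among the transcription factors. Genes for defensin-like and cysteine-rich proteins, small secreted peptides, were 6 of the mat genes (2.39%) and 0 of the 304 pat genes, against 0.802% of all. By the approximation that a count of 0 allows up to 3, the pat share could be up to about 0.987%. That limit is not an exact interval. Their mat regions differed by -27.8 points at *AT5G40155*, -15.4 at *AT3G24508*, -11.8 at *AT5G35195*, -11.4 at *LCR38*, 13.7 at *LCR35* and 26.3 at *LCR11*. Genes with kinase in the product name, some of which are not protein kinases (3.98% mat, 6.25% pat, 5.06% of all) and F-box proteins (1.99%, 0.987%, 2.38%) were near or below the share of all genes, apart from the kinase names in the pat list. Pentatricopeptide and tetratricopeptide repeat genes were 1.59% and 2.63%, against 2.13%, and disease resistance genes 0.398% (1 gene) and 0%, against 0.707%.

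CG is the context copied by maintenance methylation. A CG DMR needed a difference of at least 30 points, against 10 for CHH, so smaller CG changes are not in the lists. A CG DMR of the same contrast overlapped 3 mat regions (1.27%) and 5 pat regions (1.82%), near the 1.16% and 1.46% of all regions of the lists. All 8 lay over CG losses, 2 of them over the same one, while losses were 48.5% of the mat and 60.1% of the pat CG list. *UGT78D1*, a flavonol glycosyltransferase gene, had CHH and CG differences of -12.5 and -43.8 points in mat *nrpd1+/-*, and its CG region also differed by -32.4 points, mat minus pat. *ORG4* had -12.3 and -44.0 points in pat *nrpd1+/-*. The 2 pat regions of *AT4G02910* (-14.7 and -11.7 points) shared a CG loss of -34.1 points. Upstream of *AT5G22100* (mat) and *AT1G62895* (pat) the contexts went opposite ways, with CHH differences of 14.4 and 29.4 points and CG differences of -34.4 and -48.2 points.

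Most genes had a single region, and 6 had 2. Regions of both lists lay upstream of 3 genes. *AT2G33830*, a dormancy and auxin associated gene, had losses in both heterozygotes, -12.4 points at 993 bp in mat and -13.4 points at 543 bp in pat *nrpd1+/-*. These 2 regions adjoined each other (chr2:14310901-14311400 pat, chr2:14311401-14311800 mat). Each overlapped sequence variable in the other heterozygote, so they cannot be taken as separate sites. *AT5G34581* also had losses in both, -10.8 points at 115 bp and -20.3 points at 815 bp. *AT3G47295* had -11.9 points at 999 bp in mat and 10.6 points at 199 bp in pat *nrpd1+/-*. For *AT5G34581* and *AT3G47295* the mat region was kept in all 3 genotypes and the pat region was in sequence variable in mat *nrpd1+/-*. Within the mat list, *CRLK1*, a receptor-like kinase gene, had -10.5 points at 849 bp and 20 points at 349 bp, both in sequence kept in all 3 genotypes. *AT4G04260*, a gene with a BAH domain, had 15.2 points at 486 bp and -13.5 points at 86 bp, both in sequence variable in pat *nrpd1+/-*. Within the pat list, *AT4G02910* had -14.7 points at 436 bp and -11.7 points at 886 bp, both in sequence variable in mat *nrpd1+/-*. So neighbouring regions of the same list moved in opposite directions upstream of *CRLK1* and *AT4G04260*, and in the same direction upstream of *AT4G02910*.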

How the data were processed

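Whole-genome bisulfite sequencing of dissected endosperm was analysed for 6 samples, 2 of each of 3 genotypes. The submitters' processing notes name Trim Galore, FastQC and Bismark, with versions not given in the sources used here. Per the methods, reads were aligned to TAIR10 as single reads, methylation was computed in 300-bp windows at a step of 100 bp, replicates were pooled, and overlapping windows that differed by at least 10 points (CHH) or 30 points (CG) were merged. The deposited DMR lists hold, as the authors computed them, differences in percent methylation, and the deposited maternal-share lists hold the maternal fraction of reads of the sequence kept. Replicate-variable sequence is listed per genotype. For CHH and pat *nrpd1+/-*, the header of the list against WT names the column of region lengths, and the column after it was used. The sign of the differences was checked: regions between the heterozygotes had the sign implied by the overlapping region against WT in 98.9% (mat) and 98.6% (pat) of cases. No column of values per sample was left unused (0). Depth per sample is unknown from the lists, and PCR reads are not independent molecules.

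The CHH lists were intersected (minimum overlap 1 bp) with each other and with RefSeq genes of TAIR10.1, whose nuclear chromosomes no listed interval overran. The 3 organelle regions were left out. Python 3.11.15, NumPy 2.4.6 and SciPy 1.17.1 were used. Intervals given with shares are exact 95% Clopper-Pearson intervals. The mat and pat lists were compared with two-sided Fisher's exact tests, adjusted by the Benjamini-Hochberg method over the 3 tests, with a threshold of 0.05. The member rule and the tests were tested on simulated data. Regions named were the 5 with the largest difference per list and direction, those upstream of genes in fixed lists, and those at the limits of the rule. Others were chosen after their values were seen. The members and lists were chosen with earlier results of these data known. In all, 12 alternatives were tried.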

Additional observations from a re-analysis of the deposited data

How the results depend on the processing

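Of the results under 12 alternatives, the hypomethylated share of the mat regions stayed within its interval throughout (48.5% to 58.0%), and the share near a start passed the test under none (adjusted p 0.325 to 1, 11 alternatives, since a limit of 500 bp gives no value). A difference of at least 15 points left 90 mat and 130 pat regions, with 33.8% of the pat regions hypomethylated. Regions longer than a single window numbered 66 and 121, with 38.0% of the pat ones hypomethylated. Sequence kept in all 3 genotypes held 144 and 75, with 56.0% of the pat ones hypomethylated. A limit of 500 bp left 183 pat regions. With regions that overlapped the 1 kb upstream anywhere and touched no protein-coding gene (178 mat, 208 pat), the difference in regions upstream of more than 1 gene was 6.80 points (adjusted p = 0.0400) and that over pseudogenes -5.94 points (adjusted p = 0.0209), both by Fisher's exact test and pat minus mat. By the same exact test the pseudogene difference was -3.77 points (adjusted p = 0.0425) without members that had a region of another list within 300 bp, and -4.51 points (adjusted p = 0.0333) without chromosome 1. Over all alternatives its adjusted p ran from 0.0209 to 0.686, and that for more than 1 gene from 0.0400 to 1. The cause of these changes was not tested.

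No paired analysis was possible because the replicates were pooled in the lists. For the same reason no replicate was left out, and the depth behind each region is unknown.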
